A study of Mus musculus with 2 samples.

Results

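The genes described here are 32 lipogenesis and triglyceride synthesis genes, a list of enzymes and regulators of the hepatocyte's route from acetyl-CoA to triglyceride and lipoprotein, with desaturases and elongases left out. They were taken from the probes whose gene name, or its older symbol, was on the list, which gave 44 probes and all 32 genes out of 31695 gene names on the array. Of the 32 genes, 31 were measured on both arrays, by 42 probes, and Mogat1 was measured on 1 array only. The study measured gene expression in the liver of C57BL/6 mice with Agilent arrays of 1 colour: 1 wild-type liver was set beside 1 liver of the genotype Alb-Cre;CAG-floxed neo-Snail, each on its own array. In the second genotype the hepatocyte promoter of albumin drives Cre recombinase, and the transgene joins the broadly active CAG promoter, a floxed neo cassette and Snail. By its title the series concerns Snail enforced in hepatocytes, with steatohepatitis and tumours of the liver. No label states the animals' age, sex or diet, the hour of sampling or whether a sample held a tumour.

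De novo lipogenesis turns citrate from the mitochondrion into fatty acids: Acly splits citrate into acetyl-CoA, the acetyl-CoA carboxylases Acaca and Acacb make malonyl-CoA, and Fasn builds the fatty acid with NADPH. Acyl-CoA synthetases activate fatty acids, and the glycerol-3-phosphate route then adds acyl chains step by step, through phosphatidic acid and diacylglycerol, to triglyceride. A parallel entrance, the monoacylglycerol acyltransferase step of Mogat1 and Mogat2, makes diacylglycerol without glycerol-3-phosphate. It is prominent in the intestine and low in healthy liver. In liver the route is controlled by the transcription factors SREBP-1, encoded by Srebf1, ChREBP, encoded by Mlxipl, and the liver X receptor encoded by Nr1h3, which respond to insulin, sugar and sterols.

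Each measurement rests on a probe of 60 bases, and a stretch of 30 bases is shown for some of the genes with large differences and for a pair of probes that overlap. The Mogat1 and Mogat2 probes, whose signals were far higher in the library labelled Snail, shared no run longer than 7 bases, given in capitals:
Mogat1 probe, bases 1 to 30: ccttcctccaaggcataaGAAAGGAaggca
Mogat2 probe, bases 31 to 60: acatgttacctcaataaatGAAAGGAgtct
The Acacb probes and the Thrsp probe, the most strongly lower of the carboxylase and regulator genes, began as follows:
Acacb probe A_55_P2019054, bases 1 to 30: cctgaccacttgggtgcgctgaagaggctg
Acacb probe A_55_P2104532, bases 1 to 30: gccttcgagggacacgggcttattttggga
Thrsp probe, bases 1 to 30: aaagcagggatgctgtatctacctcacacg
Acaca had a pair of overlapping probes with 55 bases in common, which serve as a repeat measurement. They differ at their ends, where the capitals mark the bases after the shared run:
Acaca probe A_55_P2019058, bases 31 to 60: tgttgaaataaacctccacatttgtaGAAG
Acaca probe A_55_P2084706, bases 31 to 60: gttgaaataaacctccacatttgtaAAAAA
Over the 28 pairs of probes of different members of a gene family in the list, the longest run in common was 8 bases, so these probes do not share long stretches with the probes of their relatives.

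Wild-type liver had 50.7% of its 43020 gene spots well above background, and the other liver 54.0%. All differences below are log2 differences of scaled signals, the library labelled Snail minus wild-type, where each signal was divided by its array's 75th percentile. Signals quoted beside them are unscaled, so equal signals give a log2 difference below 0. With 1 array per group there was no replicate and no test, and genes were counted by size, at least 2-fold. Spots of probes printed several times gave a technical spread of the log2 difference of 0.19 for signals under 100, 0.070 from 100 to 1000 and 0.043 above, medians of the SD over 64, 110 and 65 probes. That spread holds no difference between animals. The probe of Snai1, the gene of Snail, gave signals of 23.2 for wild-type liver and 22.3 for the library labelled Snail, so it was not higher there. The probe's place relative to the transgene is not known here, so it does not check the label. Hepatocyte markers were abundant on both arrays, with Ttr at 95006 and 64136 and Apoa1 at 28785 and 4547. All 11 measured of 12 had log2 differences below 0, against 52.6% of all genes, with a median of -0.50.

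Most of the route was lower in the library labelled Snail, while the monoacylglycerol acyltransferases were far higher. By at least 2-fold, 10 of the 31 genes with a value on each array were lower, against 6.33% of all 15415 genes measured, and 1, Mogat2, was higher, against 3.98%. The lower genes were Acacb, Gpd1, Thrsp, Acss2, Lpin1, Acsl5, Agpat3, Dgat2, Acsl3 and Acly. At 1.5-fold, 15 were lower, against 14.5% of all genes, and 1 was higher, against 10.0%. The median log2 difference of the 31 genes was -0.55, beside -0.03 over all genes, and 25 of the 31 lay below 0, against 52.6% of all genes. The 11 measured hepatocyte markers had a median of -0.50, with all 11 below 0 and 1 at least 2-fold lower. The shift in the median was thus not particular to the listed genes. In tissue RNA, fewer hepatocytes and less RNA per hepatocyte cannot be told apart.

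**Figure D1:**
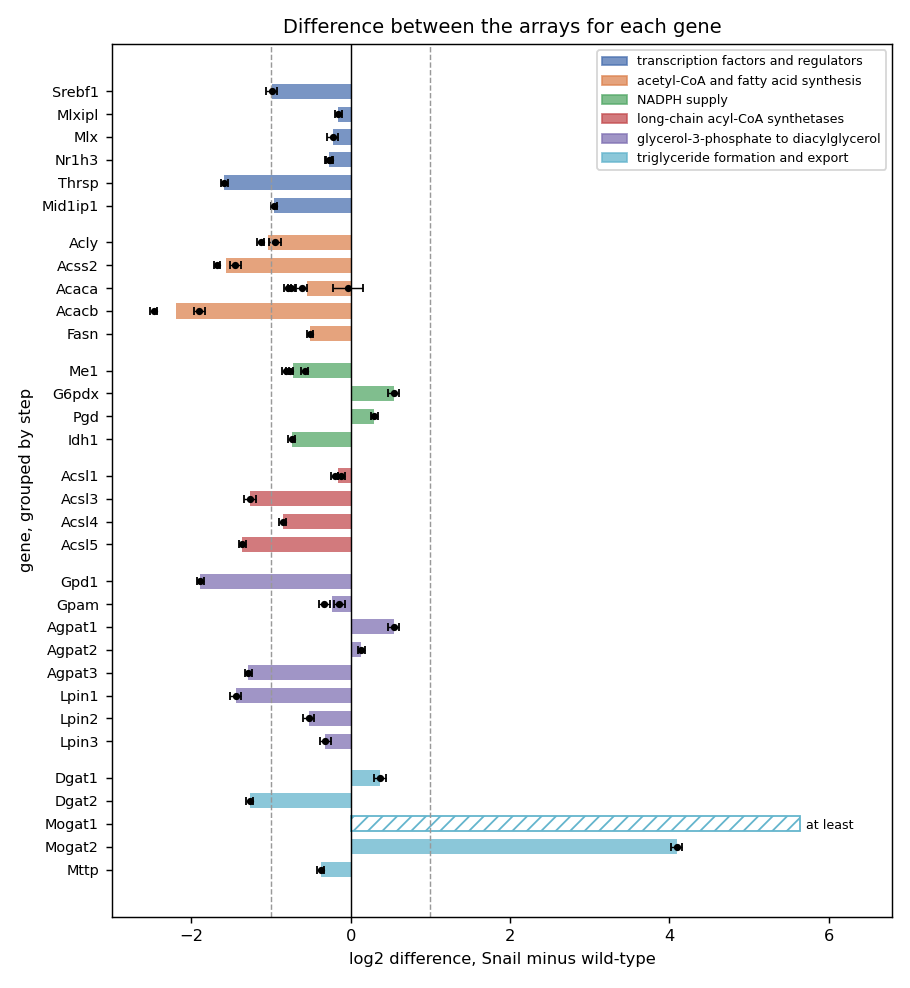
Log2 difference (Snail minus wild-type) of each of the 32 genes on the horizontal axis, grouped by step; bars are gene values, points are single probes and whiskers 1 spot SD at that signal, and dashed lines mark 2-fold. Bars point left for 25 genes, from Acacb at -2.19, and the Mogat genes stand apart on the right at 4.09 for Mogat2 and a bound of 5.64, drawn hatched, for Mogat1.

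The regulators of lipogenesis ranged from values close to the median of all genes to a log2 difference of -1.59. Srebf1, measured on chromosome 11 from 60012664 to 60012723 (mm9), had a signal of 1035 for wild-type and 677 for the library labelled Snail, a log2 difference of -0.99, or 1.99-fold lower. Mlxipl, which encodes the sugar-sensing factor ChREBP, had signals of 11022 and 12856, a log2 difference of -0.15. Its partner gene Mlx had signals of 309 and 344, a log2 difference of -0.22. Both lay close to the median of all genes. The Mlxipl value was -0.055 with normexp background correction, 0.10 with quantile normalization, 0.008 with loess and 0.059 with the authors' deposited values. The filters, the choice of the brightest probe and names by accession left the value of its single bright probe unchanged. Its sign under 5 of 8 alternatives therefore settles no direction. The receptor gene Nr1h3 was measured by 2 probes, with signals of 4817 and 5160 for one and 6958 and 7538 for the other, and a log2 difference of -0.27.

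Thrsp and Mid1ip1 encode related proteins, of which that of Mid1ip1 binds acetyl-CoA carboxylase and promotes its polymerization. Thrsp is a classic target of thyroid hormone and of carbohydrate feeding. Thrsp, on chromosome 7 from 104561649 to 104561708 (mm9), had signals of 19191 and 8297, a log2 difference of -1.59. Mid1ip1, on the X chromosome from 10296703 to 10296762 (mm9), had signals of 4793 and 3192, 1.95-fold lower. All 6 regulator genes had log2 differences below 0, from -1.59 to -0.15, and Thrsp alone was at least 2-fold lower.

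All 5 genes of acetyl-CoA supply and fatty acid synthesis were lower, 3 of them at least 2-fold, with a median log2 difference of -1.04. Acacb, the carboxylase of the outer mitochondrial membrane whose malonyl-CoA restrains fatty acid oxidation, was the lowest of the 31 genes. Its probe on chromosome 5 from 114700702 to 114700761 (mm9) had signals of 5758 for wild-type and 1345 for the library labelled Snail. Its second probe, from 114699684 to 114699743, had signals of 465 and 162. The probes gave log2 differences of -2.47 and -1.90, and their mean of -2.19 is 4.56-fold lower. Over all genes 204 of 15415, or 1.32%, were at least as far lower.

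Acaca, the cytosolic carboxylase that supplies Fasn, was 1.46-fold lower, with a log2 difference of -0.55 over 4 probes. The overlapping probes on chromosome 11 at 84215093 to 84215152 and 84215094 to 84215153 (mm9) had signals of 5279 and 3956, and of 4628 and 3590. They gave log2 differences of -0.79 and -0.74, apart by about the spot spread. A probe from 84009021 to 84009080 gave -0.61, and a dim probe from 84211638 to 84211697, with signals of 14.9 and 18.9, gave -0.03. Without the dimmer probes, taking the brightest alone, Acaca was at -0.79. Both Acacb probes thus gave lower log2 differences than any Acaca probe.

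Acss2, which makes acetyl-CoA from acetate in the cytosol and is a target of SREBP, had signals of 12350 and 5013 at its brighter probe and 778 and 370 at the other, 2.95-fold lower. Acly had signals of 30845 and 18328 at its brighter probe and 422 and 284 at the other, and its log2 difference of -1.04 fell inside 2-fold, at -0.88, under quantile normalization. Fasn, on chromosome 11 from 120667666 to 120667725 (mm9), had signals of 1426 and 1299, a log2 difference of -0.51 or 1.42-fold lower. Fasn and Acaca were thus the least lowered of the 5 genes, beside the 4.56-fold of Acacb.

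The genes that supply NADPH went both ways. The malic enzyme gene Me1 was 1.65-fold lower, with signals of 4167 and 3189, 2212 and 1630, and 1959 and 1705 at its 3 probes. Idh1, the cytosolic isocitrate dehydrogenase, had signals of 1783 and 1385, 1.67-fold lower. Of the oxidative pentose phosphate pathway, G6pdx, its first enzyme, had signals of 329 and 620, 1.45-fold higher, and Pgd, its other NADPH-producing enzyme, had signals of 1279 and 2038, 1.23-fold higher. Pgls, which encodes the step between them, was 1.12-fold lower. None of the 4 reached 2-fold, and all kept their sign under every alternative setting.

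**Figure D2:**
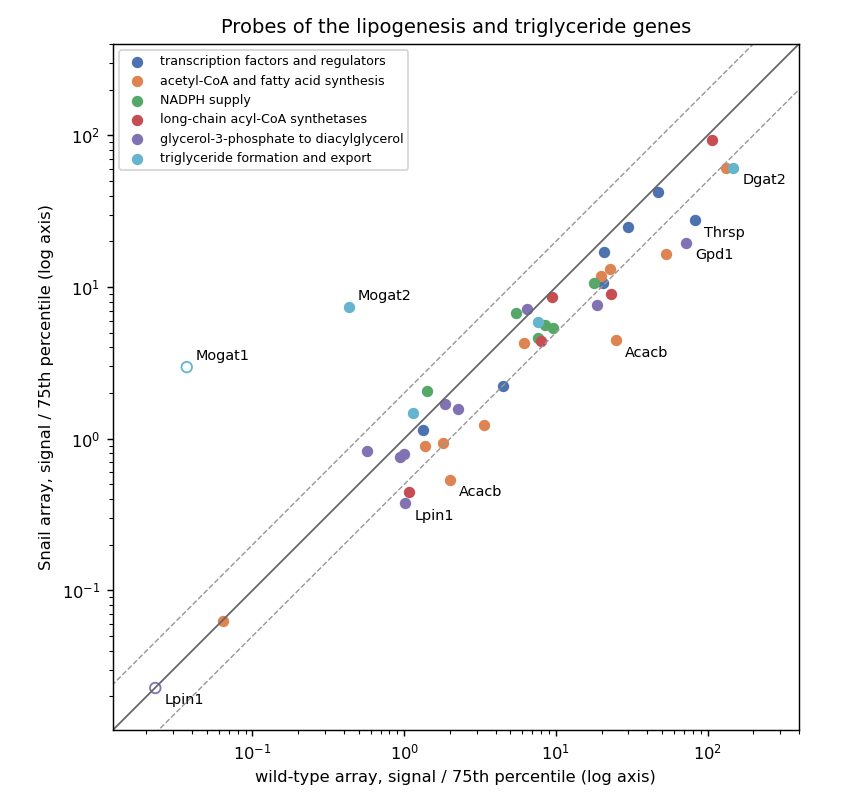
Scaled signal of each of the 44 probes on the wild-type array (horizontal, log axis) and on the Snail array (vertical, log axis), coloured by step; the solid line is equality, dashed lines mark 2-fold, and open circles were not well above background on both arrays. The Acacb, Gpd1 and Thrsp probes lie below the lower dashed line, and the Mogat1 and Mogat2 probes far above the upper one.

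Acyl-CoA synthetases, which attach coenzyme A to long-chain fatty acids, were lower except for the main liver form. Acsl5, on chromosome 19, had signals of 5377 and 2724, 2.56-fold lower. Its 60 probe bases span 589 bases of the genome, from 55368743 to 55369331 (mm9), so its bases are not contiguous in the genome. Acsl3, on chromosome 1, had signals of 250.4 and 136, 2.40-fold lower, and Acsl4, which prefers arachidonic acid and lies on the X chromosome, had signals of 1848 and 1331, 1.80-fold lower. Acsl1 had signals of 24822 and 28089 at its brighter probe and 2184 and 2615 at the other, a log2 difference of -0.16. The sign of Acsl1 turned under quantile normalization, to 0.068, and with the authors' deposited values, to 0.019. With loess it was -0.0098, so no direction is settled.

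On the glycerol-3-phosphate route the median log2 difference was -0.42, with 3 of 8 genes at least 2-fold lower and 0 higher by that much. Gpd1, which makes glycerol-3-phosphate from the glycolytic intermediate dihydroxyacetone phosphate, had signals of 16838 and 5910 on chromosome 15 from 99555334 to 99555393 (mm9), 3.70-fold lower. Gpam, the mitochondrial enzyme that adds the first acyl chain, had signals of 434 and 510 at one probe and 232 and 239.7 at the other, a log2 difference of -0.24.

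The next acyl chain is added by the Agpat enzymes, which differed among themselves. Agpat3 had signals of 4344 and 2311, 2.44-fold lower. Agpat2, the form whose loss causes lipodystrophy, had signals of 1508 and 2149, a log2 difference of 0.13, and Agpat1 had signals of 133 and 250.2, 1.45-fold higher. The lipins remove phosphate from phosphatidic acid. Lpin1 had signals of 237 and 113 at its measured probe, on chromosome 12 from 16543695 to 16543754 (mm9), 2.72-fold lower. A second Lpin1 probe, from 16542515 to 16542574, had signals of 5.32 and 6.87, neither of them well above background. Lpin2 had signals of 528 and 476, 1.44-fold lower, and Lpin3 had signals of 219 and 228, 1.25-fold lower.

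The last steps held the genes with the largest higher values, the Mogat genes, and values on both sides of 0. Dgat2, the diacylglycerol acyltransferase that serves newly made fatty acids, had signals of 34328 and 18485, 2.41-fold lower, on chromosome 7 from 106302215 to 106302274 (mm9). Dgat1, the structurally unrelated enzyme of the same reaction, had signals of 267 and 447, 1.29-fold higher, at a probe on chromosome 15 that spans 147 bases, from 76333128 to 76333274. Mttp, the transfer protein that loads triglyceride onto apolipoprotein B, had signals of 1776 on both arrays, a log2 difference of -0.38 after scaling.

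Mogat2, on chromosome 7 from 106367601 to 106367660 (mm9), had a signal of 101 for wild-type and 2233 for the library labelled Snail, 17.1-fold higher. Both signals were well above background, and 24 of the 15415 genes measured, or 0.156%, were at least as far higher. Mogat1, on chromosome 1 from 78534677 to 78534736 (mm9), was not well above background in wild-type liver, at 8.58, and had a signal of 896 in the other. Against the lowest signal well above background on the wild-type array, 13.8, this is at least 49.96-fold higher, a bound of 5.64 on the log2 scale. Counting such bounds too, 4.93% of 17256 genes were at least 2-fold higher. The observed Mogat1 signals gave a log2 difference of 6.33, and 3.52 with normexp background correction, chosen for this probe after seeing the data, so the size depends on the background step and the direction does not. With normexp Mogat2 was at 3.54. Dgat2, which belongs to the same protein family as the Mogat enzymes, went the other way.

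**Figure D3:**
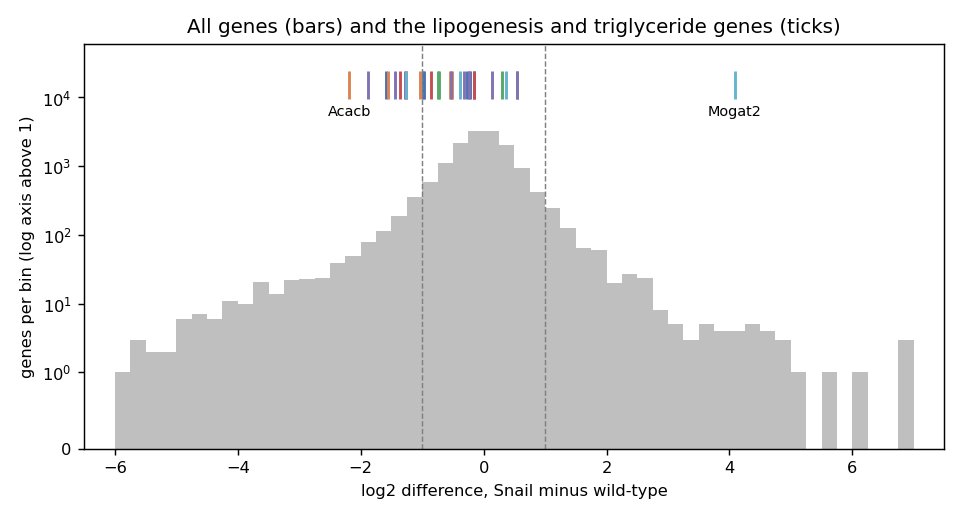
Number of genes per bin of 0.25 in the log2 difference (Snail minus wild-type) for all 15415 genes measured on both arrays, on an axis that is logarithmic above 1, with ticks for the 31 genes; dashed lines mark 2-fold. The ticks lie mostly left of 0, with Acacb at -2.19 the farthest, and the Mogat2 tick at 4.09 stands alone.

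The promoters of these genes, 250 bases before to 50 after the start in RefSeq on GRCm38.p6, were searched on both strands for letters that lipogenic factors are known to bind. Windows were found for 28 members, 41 windows in all, and not for Dgat1, Dgat2, Gpd1 and Mogat2. The CCAAT box, CCAAT, bound by NF-Y, was in a window of 18 of the 28 members, against 41.1% of all 27025 genes. A gene with more windows has more places for a match. Counted by window, the box was in 19 of 41, against 37.4% of all 32851 windows. It was in 6 of the 8 members that were at least 2-fold lower and had a window, namely Thrsp, Acly, Acss2, Acacb, Acsl3 and Acsl5, and in 12 of the other 20. The E-box CACGTG, bound by USF and, in tandem, by ChREBP, was in windows of 4 members, Lpin2, Lpin3, Mlx and Mlxipl, against 8.09% of all genes. By window the E-box was in 4 of 41, against 7.15%, and the sterol element below in 2 of 41, against 1.24%. The sterol element TCACNCCAC, with N for any base, was in windows of Acsl1 and Mlxipl, against 1.44% of all genes, and the long sterol element, the same letters after an A, in 0 of 28 against 0.270%. None of the 8 lower members held the E-box or either form of the sterol element in these windows. With shares of at most 8.09% among all genes, 0 of 8 does not set these members apart. The lower genes Dgat2 and Gpd1 had no window to search.

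The 250 bases upstream of the start are shown for 3 of the strongly lower genes and, beside them, for Mogat1, with matches to the searched letters in capitals, 5′ to 3′ on the gene's strand:
Thrsp, chr7:97417551-97417800, minus strand: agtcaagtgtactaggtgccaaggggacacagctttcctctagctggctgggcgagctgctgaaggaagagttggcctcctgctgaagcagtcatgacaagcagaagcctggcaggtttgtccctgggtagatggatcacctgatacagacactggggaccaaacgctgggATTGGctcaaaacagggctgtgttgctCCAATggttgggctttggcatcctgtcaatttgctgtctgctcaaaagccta
Acss2, chr2:155517793-155518042, plus strand: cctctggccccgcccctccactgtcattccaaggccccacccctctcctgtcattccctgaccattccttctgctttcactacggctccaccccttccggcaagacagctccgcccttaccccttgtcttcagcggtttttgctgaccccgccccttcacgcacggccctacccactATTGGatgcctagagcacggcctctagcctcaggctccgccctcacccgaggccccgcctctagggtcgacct
Acacb, chr5:114165268-114165517, plus strand: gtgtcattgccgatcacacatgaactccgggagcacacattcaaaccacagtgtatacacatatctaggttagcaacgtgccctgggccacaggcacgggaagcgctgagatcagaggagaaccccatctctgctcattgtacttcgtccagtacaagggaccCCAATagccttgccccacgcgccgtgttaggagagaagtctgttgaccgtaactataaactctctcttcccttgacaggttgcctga
Mogat1, chr1:78510810-78511059, plus strand: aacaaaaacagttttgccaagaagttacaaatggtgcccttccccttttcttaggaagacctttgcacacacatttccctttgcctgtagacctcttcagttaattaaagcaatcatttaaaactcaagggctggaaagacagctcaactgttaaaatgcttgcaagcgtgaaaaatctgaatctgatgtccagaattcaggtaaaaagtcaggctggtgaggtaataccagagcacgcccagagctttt
The Thrsp stretch holds 2 CCAAT boxes, 1 on each strand, the Acss2 stretch 1 on the opposite strand, the Acacb stretch 1 on the gene's strand and the Mogat1 stretch none, its match beginning 25 bases after the start. A match in these letters is a description of the sequence and not a bound site.

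Of 105 neighbouring genes of the pathway 97 were measured, and their median log2 difference was -0.18. By at least 2-fold, 8 were lower and 1 was higher, against 6.33% and 3.98% of all genes. Among genes that process SREBP or control it, 2 of 10 were lower by at least 2-fold and 0 higher. Scap, which escorts SREBP from the endoplasmic reticulum, had signals of 5798 and 2765, 2.72-fold lower, and Insig1, which holds it there, had signals of 4677 and 2558, 2.37-fold lower. Srebf2, which encodes the cholesterol-directed SREBP-2, was 1.67-fold lower. The coactivator gene Ppargc1b had a log2 difference of 0.36, and the list's median was -0.17.

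Of 9 sugar uptake and ChREBP target genes, 2 were lower by at least 2-fold and 0 higher. Pfkfb1, the liver enzyme that sets fructose 2,6-bisphosphate, was 3.16-fold lower. The glucose transporter gene Slc2a2 was 1.54-fold higher, and the list's median was -0.21. Of 8 genes of the liver X receptor and its other targets, 0 were 2-fold apart. The sterol transporter genes Abcg8 and Abcg5 were 1.74-fold and 1.56-fold lower, while Abca1 and Pltp had log2 differences of -0.29 and -0.14, and the list's median was -0.11.

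Among 13 measured other glycerolipid acyltransferase and glycerol genes, Plpp2, which encodes a phosphatidate phosphatase of the membrane, was the only neighbour at least 2-fold higher, with signals of 1790 and 10524, 4.53-fold. Gpat3, the acyltransferase of the endoplasmic reticulum, was 1.63-fold higher, against Gpd1l at 1.90-fold and Gpat2 at 1.84-fold lower. In the phospholipid branch 0 of 13 were at least 2-fold apart, with Chka, the choline kinase, 1.99-fold and Chpt1 1.85-fold higher and Pemt, which methylates phosphatidylethanolamine, lower by a log2 difference of -0.67. In the list of malonyl-CoA removal and AMPK, the malonyl-CoA decarboxylase gene Mlycd was 2.11-fold and the AMPK subunit gene Prkag2 2.20-fold lower, and Prkaa1 was 1.82-fold higher, with a median of 0.034 over 8 genes.

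Of 9 measured VLDL assembly genes, Tm6sf2, which is needed to load lipid onto VLDL, was 2.04-fold lower and 8 of the 9 lay below 0, with Aadac 1.53-fold lower and a median of -0.34. Of 12 citrate and NADPH side steps, Mthfd1, a folate enzyme, lay just past 2-fold lower, and Slc25a10 and the transketolase gene Tkt were 1.79-fold and 1.63-fold higher. Other acyl-CoA synthetase genes had a median of -0.59 over 9, with Aacs 1.99-fold lower and Acss1 1.96-fold higher, and 0 were 2-fold apart. Mitochondrial fatty acid synthesis, a separate pathway, had 0 of 6 genes 2-fold apart, with Cbr4 1.40-fold lower.

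**Figure D4:**
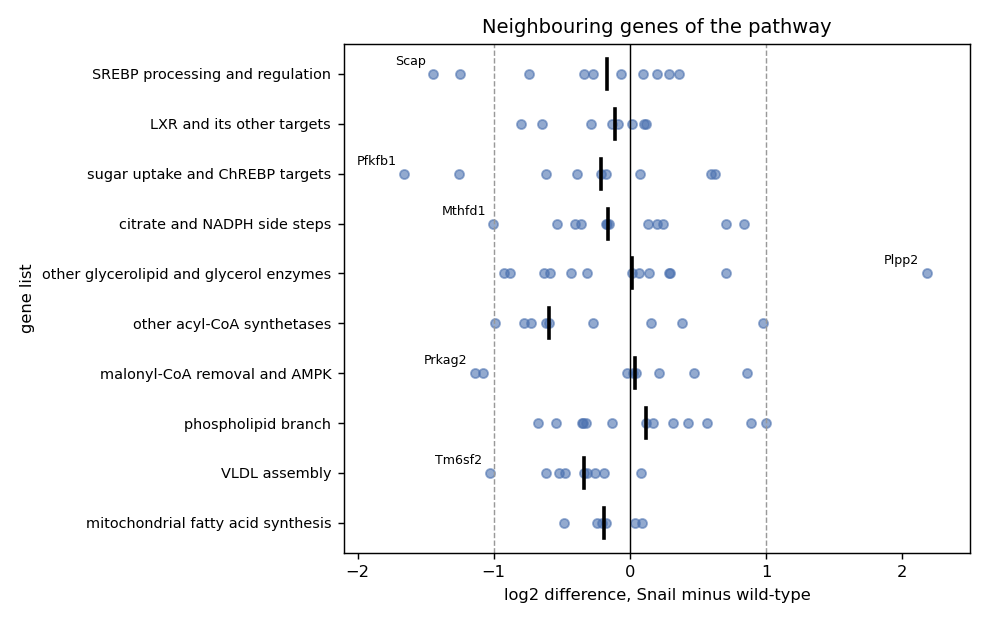
Log2 difference (Snail minus wild-type) of each measured gene of 10 neighbouring lists; points are genes, black bars list medians and dashed lines 2-fold, and the farthest gene of each list is named where it is at least 2-fold apart. Plpp2 at 2.18 lies alone on the right, and Pfkfb1 and Scap are the farthest to the left.

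Genes that respond to feeding and time of day differed between the same livers. Of 11 measured fasting and insulin response genes, Irs2 and Igfbp1 had log2 differences of -2.46 and -2.26, and Pdk4 one of 2.46. The gluconeogenic genes Pck1 and G6pc had log2 differences of -0.14 and -0.05. Of 11 measured clock genes, 5 were lower by at least 2-fold and 0 higher, against 6.33% and 3.98% of all genes. Dbp was 41.8-fold, Nr1d1 11.1-fold and Nr1d2 3.59-fold lower and Arntl 1.76-fold higher. Several lipogenic genes are known to follow feeding and the clock. With 1 liver of each genotype, genotype, feeding state and hour of sampling cannot be told apart.

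Xist had signals of 324 and 442 at its brighter probe, and 0 of 7 Y-linked genes were well above background in either liver, so this marker list did not separate the livers. Genes known to differ between male and female liver differed, and not in 1 direction. Of those known to be higher in males, Cyp4a12b was at least 671-fold and Cyp4a12a at least 449-fold higher, while Slco1a1 was at least 12.3-fold and Hsd3b5 at least 9.37-fold lower. Cyp3a44, known to be higher in females, was at least 179-fold lower. Among the 12 of these measured on both arrays, 6 were lower by at least 2-fold and 0 higher, against 6.33% and 3.98% of all genes. Their part in the lipogenic values was not tested.

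Markers of other cells were set beside these values. Of 9 adipocyte markers on the array, 7 were dim, not well above background in either liver, with Adipoq at 3.74 and 9.09, Plin1 at 3.48 and 2.72 and Lep at 5.05 and 5.84. The measured pair were Fabp4, 1.39-fold higher, and Cidec, 118-fold higher, with a summed scaled signal of 2.18 for wild-type and 11.3 for the library labelled Snail. The Cidec signals were 16.4 and 2516, and those of Fabp4 490 and 886. The wild-type Cidec signal lay close to the lowest well above background there, 13.8, so the size of its fold is uncertain. Most of the rise in the sum came from Cidec. The summed scaled signal was 68.3 and 82.1 over 9 macrophage markers, 8 of them above 0 in log2 difference, and 18.4 and 21.9 over 3 cholangiocyte markers, all above 0. Over 8 lymphocyte markers it was 6.24 and 4.45, although 5 of the 8 lay above 0, with a median of 0.31, Ms4a1 2.37-fold higher and Cd4 2.57-fold lower. Over 8 stellate cell and fibroblast markers it was 54.3 and 30.3, with 5 below 0 and a median of -0.63. The bright marker Dcn was 1.92-fold and Lum 3.07-fold lower, while the collagen genes Col1a1 and Col3a1 were higher, at log2 differences of 1.32 and 0.95. The sum was 42.9 and 41.3 over 7 endothelial markers, 4 of them above 0, and 209 and 129.97 over 5 erythroid markers, 3 of them below 0. Single bright genes carry some of these sums. Hemgn, with signals of 35811 and 23507, made up most of the erythroid sum, and the median log2 difference of the 5 was -0.19. Aqp1, with signals of 4199 and 6408, made up most of the cholangiocyte sum. Markers likewise dim in both livers included the lymphocyte marker Cd8a, the cholangiocyte markers Krt7, Krt19, Epcam and Cftr, the stellate marker Des and the erythroid markers Ahsp and Epb42. Markers well above background in the library labelled Snail alone included Cd68, Acta2 and Tek. Over the whole array 1381 genes were so in that library alone, and 460 in wild-type liver alone. Cd68 had signals of 8.14 and 17.8, too close to background for a fold. Over the 11 measured hepatocyte markers the summed scaled signal was 5319 and 3635. The part of the cell makeup in the lipogenic values was not tested.

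The pattern held across the 8 alternative settings for most of the 31 genes. The sign was the same under all alternatives for 29 genes, the others being Mlxipl and Acsl1, and no gene moved by over 1.5-fold. For genes with 1 bright probe, the filters, the brightest probe and names by accession returned the reported value, so they add no check. Of the 10 lower genes, Acacb, Gpd1, Thrsp, Acss2, Acsl5 and Agpat3 were at least 2-fold lower under all alternatives. Acly and Dgat2 came inside 2-fold under quantile normalization, at -0.88 and -0.99, Acsl3 with normexp at -0.96 and Lpin1 without a filter at -0.96. Without a filter on dim probes, dim signals were raised to a floor, the lowest signal well above background. That floor was 13.8 for wild-type liver and 12.9 for the library labelled Snail. Scaled by the 75th percentiles of 233 and 302, a probe at the floor in both livers has a log2 difference of -0.47. The median of all genes was this same -0.47, so it was set by the floors. The median of the listed genes was -0.54, a gap of -0.06 in place of -0.52. Because the floors set 1 side of it, that smaller gap is no check on the reported one. The Lpin1 value of -0.96 without a filter was likewise the mean of its measured probe and a dim probe raised to both floors. Under the 7 other alternatives Lpin1 was at least 2-fold lower.

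**Figure D5:**
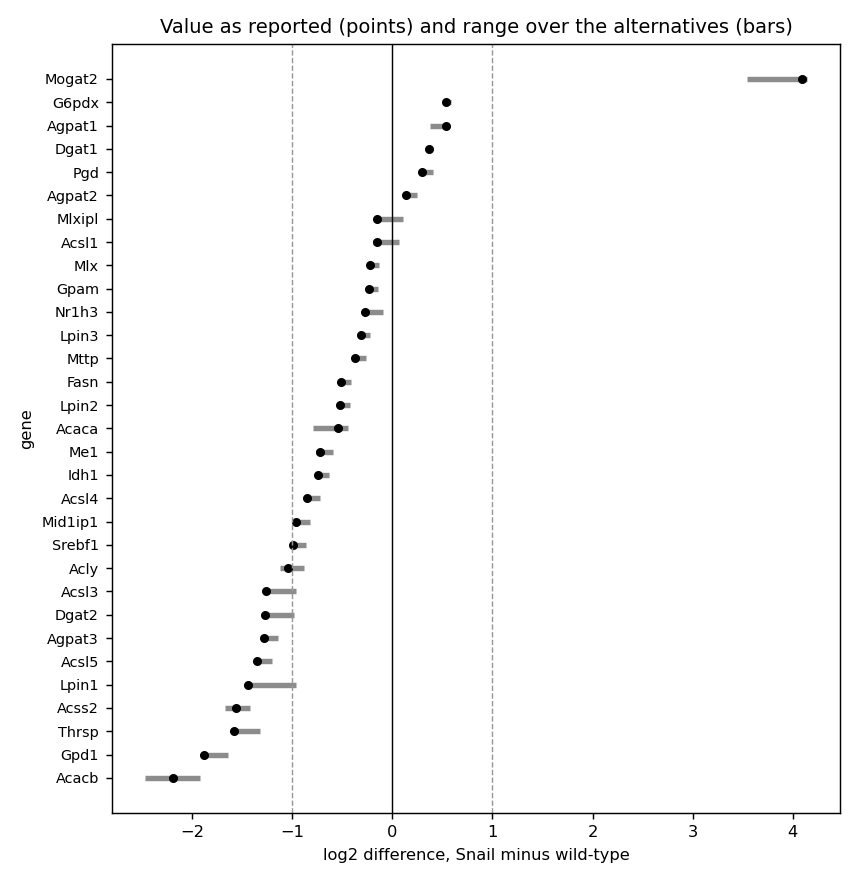
Log2 difference (Snail minus wild-type) of the 31 genes measured on both arrays, ordered by value; points are the values as reported, grey bars the range over 8 alternative settings and dashed lines 2-fold. Bars cross 0 for Mlxipl and Acsl1 and cross the lower 2-fold line for Acly, Acsl3, Dgat2 and Lpin1.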

How the data were processed

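Total RNA of liver was amplified, labelled with Cy3 and hybridized, 1 array per genotype. The authors deposited intensity values that are background-subtracted and detrended within each array and carry mm9 probe positions, per the file headers. The submitters' processing notes name Agilent Feature Extraction, version 9.5.1.1. The authors' deposited value table of 39429 probes, with intensity values and the same median of 17.3 in both columns, was an alternative. How it was scaled and centred is unknown here, and its log2 values correlated at 1.00 with those of their own arrays.

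Here the log2 signal minus the array's 75th percentile (signals of 233 and 302) was averaged over the probes of a gene with signals well above background in both livers. Left out were 287 outlier spots. Older symbols were updated through RefSeq names of GRCm38.p6 for 3992 probes. A gene seen on 1 array has only a bound. Tools were limma 3.58.1 and Python 3.11.15. The scaling and averaging in Python were tested on simulated data, and the limma normalizations were not part of that test. The 32 genes, the other lists and the size rule were chosen with earlier results of these data known. All 32 genes are named, and of other lists those with the largest differences. Pgls and Dcn were named after their values were seen. Alternatives were normexp (offset 50), quantile and loess normalization, the value table, a signal of at least 100, no filter, the brightest probe and names by accession. Some genes of the other lists are not reported here. The number of arrays limits the precision.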

Additional observations from a re-analysis of the deposited data

How the results depend on the processing

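Over the 8 alternatives, between 8 and 10 of the listed genes were at least 2-fold lower, against 10 as reported, and between 23 and 25 lay below 0. The median log2 difference of the listed genes, -0.55 as reported, was -0.72 with a signal of at least 100 on both arrays, which removes the dim Acaca probe, and -0.74 with the brightest probe of each gene. At least 2-fold higher was 1 gene, Mogat2, as reported, and 2 without a filter, where Mogat1 has a value. With normexp 8 genes were at least 2-fold lower, and 3.70% of all genes against 6.33%. Of 248 values of single genes under alternatives, 5 had the opposite sign, for Mlxipl and Acsl1. Many of the 248 repeat the reported value, because filters and probe choice do not alter a gene with 1 bright probe. No paired analysis was possible because each group has 1 array. With 1 array per group, no difference of any size could be told from a difference between animals, and dim signals give bounds that move with the background step, as for Mogat1.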
